A study of Mus musculus with 7 samples.

Results

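The genes described here are 10 classical myokines, that is, genes whose secreted products were among those first assigned to skeletal muscle: Il6, Il15, Lif, Bdnf, Fndc5, Fgf21, Metrnl, Ostn, Sparc and Fam132b. They were picked by name as a list of known myokines, with no threshold on their values, and all 10 were found among the 26607 gene symbols of the expression tables. Expression was measured by RNA-seq in myotubes of C2C12, an established mouse myoblast line that fuses into contractile muscle fibres in culture. Electrical pulse stimulation (EPS), which makes such myotubes contract, was applied for 24 h from day 3 of differentiation, and RNA was taken after 1 h of rest. The control group (3 libraries, replicates 1, 3 and 4) was left without EPS, and the EPS group has 4 libraries (replicates 1 to 4). The days of differentiation and the time of harvest are not stated for the controls. The labels name no treatment other than EPS, the wells hold no blood, nerve or immune cells by design, and all libraries come from 1 cell line. The labels do not say whether replicates came from separate cultures, so p-values measure the spread between these libraries, which may be technical. The libraries hold 16616917 to 22120641 reads, and control replicate 4 stood apart in having few genes with low counts (14014 genes above 0, against 16144 to 16984 in the others). Whether low counts were removed from control replicate 4 before deposit is not known, so a 0 there may stand for a low count.

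Myokines act on the muscle itself, on neighbouring cells or, through the blood, on liver, fat, bone and brain. Several are produced or released when muscle contracts, and their genes are switched on by different routes: calcium and cytokine signalling for Il6 and Lif, the coactivator PGC-1alpha for Fndc5 and Metrnl, and the integrated stress response (through the transcription factor ATF4) for Fgf21. Because some products are stored, cut from a membrane precursor or bound to a partner before release, the mRNA level is only one step in what a cell secretes. The question addressed by the comparison is whether the mRNA of these genes differs between stimulated and resting myotubes.

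The promoters of 3 members are shown because their transcription routes are the best known and because Fgf21 and Lif had the largest log2 fold changes of the expressed members. Each is the 250 bases before the RefSeq transcription start (assembly GRCm38.p6), written 5′ to 3′ on the gene's own strand: Fgf21 at chr7:45615491-45615740 (minus strand), Il6 at chr5:30012864-30013113 (plus strand) and Lif at chr11:4257318-4257567 (plus strand). Capitals mark matches to 5 motifs searched on both strands: TTGCATCA (an amino acid response element bound by ATF4 and its partners), TGACG (a core of the cyclic AMP response element, which reads CGTCA on the other strand), TGANTCA (the AP-1 site), CACGTG (an E-box) and TATAAA (the TATA box).
Fgf21: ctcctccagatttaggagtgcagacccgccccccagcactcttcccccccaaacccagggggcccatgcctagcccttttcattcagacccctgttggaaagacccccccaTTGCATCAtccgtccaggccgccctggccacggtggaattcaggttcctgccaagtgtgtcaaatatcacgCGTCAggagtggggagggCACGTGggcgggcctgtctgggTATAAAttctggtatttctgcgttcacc
Il6: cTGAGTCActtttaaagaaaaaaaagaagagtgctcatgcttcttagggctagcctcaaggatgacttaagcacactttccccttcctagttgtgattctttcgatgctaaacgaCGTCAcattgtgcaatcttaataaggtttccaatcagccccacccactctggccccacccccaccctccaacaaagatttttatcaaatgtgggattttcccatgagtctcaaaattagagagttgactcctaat
Lif: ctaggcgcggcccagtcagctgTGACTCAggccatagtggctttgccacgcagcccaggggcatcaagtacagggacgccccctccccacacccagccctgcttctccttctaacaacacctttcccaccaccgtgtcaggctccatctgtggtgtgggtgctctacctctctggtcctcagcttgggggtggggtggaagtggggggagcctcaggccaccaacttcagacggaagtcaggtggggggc
The Fgf21 promoter held 4 of the 5 motifs. Its TTGCATCA match lay 139 bases before the start, the CGTCA match 68, the CACGTG match 50 and the TATAAA match 28 bases before it. TTGCATCA was present in 0.791% of all 32851 RefSeq promoters of that length (260 promoters), TATAAA in 12.4%, TGACG in 17.8%, TGANTCA in 6.75% and CACGTG in 6.02%. The Il6 promoter held an AP-1 match 249 bases before its start and a CGTCA match 135 bases before it, and the Lif promoter held an AP-1 match at 228 bases. Of the 8 members with an entry in the promoter table (all but Il15 and Ostn, 14 starts in all), Fgf21 was the only one with TTGCATCA, CACGTG or TATAAA. Bdnf, with several alternative starts, had an AP-1 match before one start and a TGACG match before another. A match is a run of letters and does not show that a factor was bound in these cells.

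Levels were deposited as CPM, the reads of a gene scaled to a fixed library total. A gene was called when limma on log2(CPM + 1) gave an unadjusted two-sided P under 0.01 and the difference was over 2-fold, and p-values adjusted by Benjamini-Hochberg over all 19144 genes tested are given beside it. None of the 10 myokine genes was called in either direction. Over all genes tested, 1.41% were called, 0.966% higher and 0.439% lower after EPS. None of the 10 had an adjusted p under 0.05 (limma, range 0.408 to 0.938), against 0.141% of all genes tested. Lif alone had an unadjusted P under 0.05, against 11.6% of all genes tested. Fgf21 and Metrnl joined it under quantile normalization, median-of-ratios scaling and edgeR (3 of 10 members, against 10.7%, 10.9% and 11.6% of all genes), and Sparc as well under DESeq2 (4 of 10, against 10.6%). The P of Lif was above 0.05 without control replicate 1 or 3 or EPS replicate 1, 3 or 4 (log2 fold change −0.66 to −0.43). In none of the 10 were the control and EPS libraries fully separated, against 10.6% of all genes tested.

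The direction of the differences leaned one way without any of them passing the test. Of the 10 genes, 8 had a mean of at least 1 CPM, and all 8 had a log2 fold change below 0 (EPS against control), with a median of −0.30. Among all 12256 genes at that level the median was 0.10 and 36.4% were below 0. The other 2, Il6 and Ostn, were close to the limit of detection. For all 8 expressed members the highest of the 7 libraries was a control: replicate 3 for 5 of them (Fgf21, Lif, Bdnf, Sparc and Fam132b) and replicate 4 for the other 3 (Metrnl, Fndc5 and Il15). When control replicate 4 was left out, 6 of the 8 were below 0, and 7 of 8 when control replicate 3 was left out. The 8 genes are measured in the same 7 libraries and are not independent of one another.

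**Figure D1:**
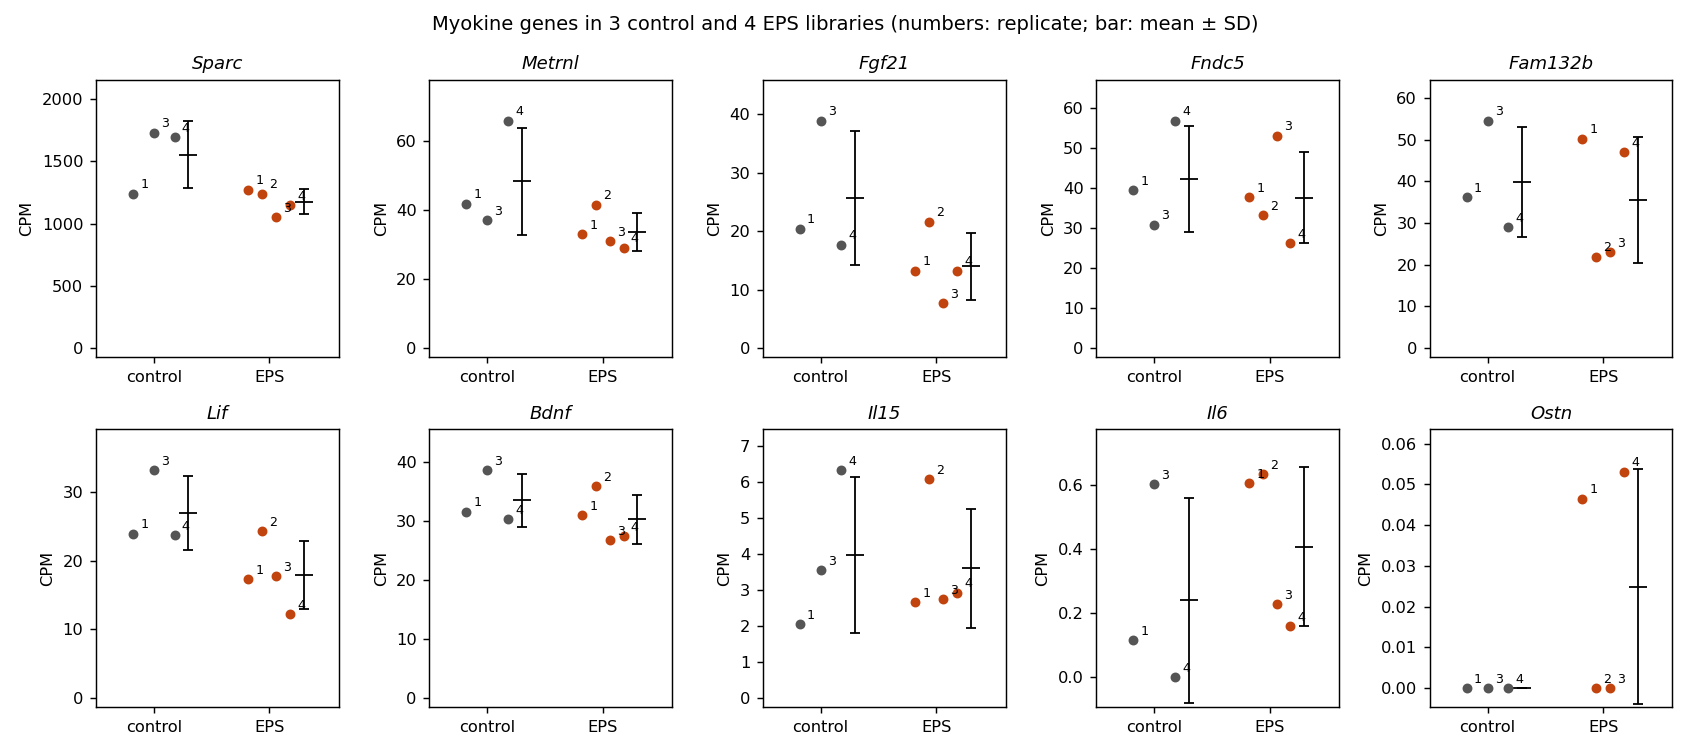
Levels (y axis, CPM, linear and starting near 0) of each of the 10 myokine genes in the 3 control libraries (grey) and the 4 EPS libraries (orange), with the replicate number beside each point and bars for mean ± SD. In each of the 10 panels at least 1 EPS library lies within the range of the controls; Sparc is at 1050 CPM or more in every library, while Il6 reaches at most 0.633 CPM and Ostn 0.0531 CPM.

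**Figure D2:**
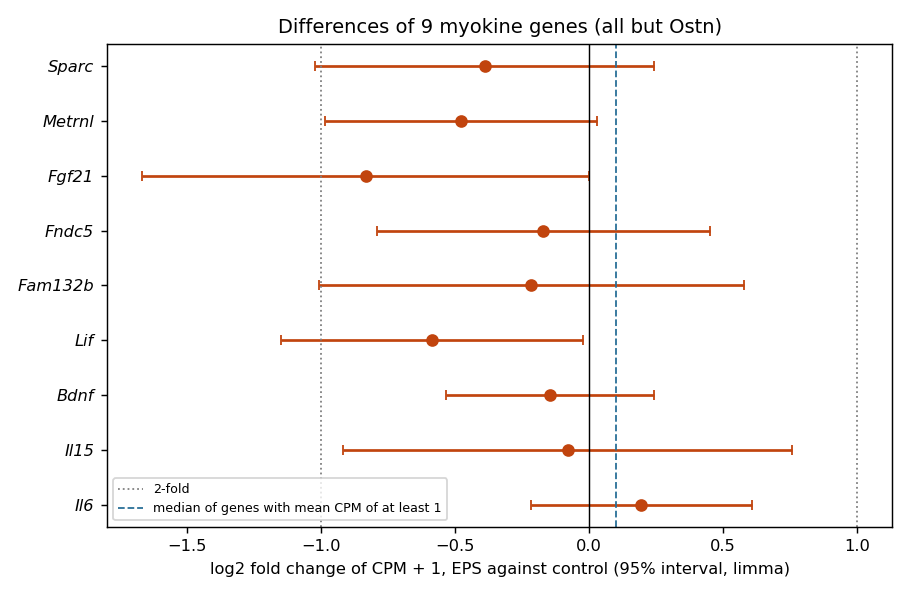
Log2 fold change of CPM + 1, EPS against control (x axis), for the myokine genes other than Ostn, with 95% intervals from limma, dotted lines at 2-fold and a dashed line at the median of genes with a mean of at least 1 CPM (0.10). The interval of Lif ends just below 0 (−0.022), that of Fgf21 ends at 0.00084, and every other interval spans 0.

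Il6 and Lif encode 2 cytokines of one family that signal through the shared receptor subunit gp130 (gene Il6st). Il6 (ENSMUSG00000025746.11, chromosome 5, 30013114 to 30019981, plus strand, GRCm38), the prototype of exercise-induced myokines, was almost absent from these myotubes. Control replicates 1, 3 and 4 held 2, 10 and 0 of its reads (0.117, 0.602 and 0 CPM). EPS replicates 1 to 4 held 13, 13, 5 and 3 reads (0.605, 0.633, 0.228 and 0.159 CPM). EPS replicates 1 and 2 were above the highest control by a small margin, and the other 2 lay among the controls. The mean was 0.239 ± 0.319 CPM (SD, n = 3) in control and 0.407 ± 0.247 CPM (SD, n = 4) after EPS, and the difference was smaller than the spread (log2 fold change 0.20, SE 0.18, limma adjusted p = 0.733, exact permutation p = 0.429). On the log2(CPM + 1) scale the fold change of a gene this low is understated, and with a pseudocount of 0.1 it was 0.89. Control replicate 4, where Il6 was not detected, had 359 genes with 1 to 5 reads, while the other libraries had 2670 to 3181, and without it the log2 fold change of Il6 was 0.056. The 95% interval on the log2(CPM + 1) scale reached from −0.22 to 0.61, and the value rested on single control libraries, since without control replicate 3 it was 0.40 (unadjusted P of 0.0324, limma adjusted p = 0.309).

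Lif (leukaemia inhibitory factor, ENSMUSG00000034394.14, chromosome 11, 4257557 to 4272514, plus strand) promotes myoblast proliferation and was expressed in all 7 libraries. It stood at 23.9, 33.2 and 23.7 CPM in control replicates 1, 3 and 4 and at 17.3, 24.3, 17.7 and 12.2 CPM in EPS replicates 1 to 4. Of the EPS libraries, 3 were below the lowest control, and EPS replicate 2 was just above the lower pair of controls. The mean was 26.9 ± 5.39 CPM (SD, n = 3) against 17.9 ± 4.94 CPM (SD, n = 4), an EPS to control ratio of 0.663. The log2 fold change was −0.59 (SE 0.25, 95% interval −1.15 to −0.022), with an unadjusted P of 0.0432, a limma adjusted p = 0.408 and an exact permutation p = 0.114. Lif had the smallest limma P of the 10 members in the reported analysis, and it failed both the 2-fold limit and the correction for multiple tests. The receptor subunits of both cytokines were present: Il6st averaged 227 CPM in control and 207 CPM after EPS, Lifr 212 and 150 CPM (log2 fold change −0.50, SE 0.26, limma adjusted p = 0.513, and −0.28 without control replicate 1), and Il6ra, which gives a cell its own response to IL-6, 7.63 and 7.23 CPM. None of these receptor genes was called.

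Il15 (ENSMUSG00000031712.10, chromosome 8, 82331632 to 82403222, minus strand) encodes a cytokine that supports lymphocytes and is presented by its receptor chain IL15RA. Its control values were 2.04, 3.55 and 6.33 CPM and its EPS values were 2.65, 6.09, 2.74 and 2.92 CPM. Both groups contained 1 library near 6 CPM and the rest between 2 and 4 CPM, and they overlapped throughout. The mean was 3.97 ± 2.18 CPM (SD, n = 3) in control and 3.60 ± 1.66 CPM (SD, n = 4) after EPS (log2 fold change −0.079, SE 0.37, limma adjusted p = 0.938, exact permutation p = 0.657). The 95% interval, −0.92 to 0.76, leaves room for a difference of nearly 2-fold downward and of 1.69-fold upward. The sign was not stable, since without control replicate 4 the log2 fold change was 0.25. Il15ra was low in both groups, with means of 0.278 CPM in control and 0.460 CPM after EPS.

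Bdnf (brain-derived neurotrophic factor, ENSMUSG00000048482.14, chromosome 2, 109674700 to 109727007, plus strand), a neurotrophin also made by muscle, had the smallest ratio of its highest to its lowest library among the expressed members. Control libraries had 31.5, 38.6 and 30.3 CPM and EPS libraries 31.0, 35.9, 26.8 and 27.4 CPM, with EPS replicates 3 and 4 below the lowest control. The means of 33.5 ± 4.45 CPM (SD, n = 3) and 30.2 ± 4.17 CPM (SD, n = 4) differed by less than 1 SD (log2 fold change −0.14, SE 0.17, 95% interval −0.53 to 0.24, limma adjusted p = 0.798, exact permutation p = 0.429). A 2-fold difference in either direction lies outside that interval. Ntrk2, the gene of its high-affinity receptor TrkB, was listed at 0 in all 7 libraries, and Sort1, the sorting receptor sortilin that routes the precursor of BDNF, averaged 31.1 CPM in control and 27.2 CPM after EPS. Ntf5, another neurotrophin gene, averaged 1.25 CPM in control and 1.82 CPM after EPS. In the gene models 896 exon bases of Bdnf overlap an antisense gene, Gm45346, and although the library kit keeps strand, the strand setting of the counting is not given in the sources used here, so whether reads of that pair were told apart is unknown.

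Fndc5 and Metrnl are both described as muscle targets of PGC-1alpha. Fndc5 (ENSMUSG00000001334.9, chromosome 4, 129136999 to 129144593, plus strand) encodes the membrane protein from which irisin is cut. It was at 39.5, 30.9 and 56.9 CPM in control replicates 1, 3 and 4 and at 37.8, 33.3, 53.1 and 26.3 CPM in EPS replicates 1 to 4. The groups covered nearly the same range, with 1 EPS library below the lowest control. The means were 42.4 ± 13.3 CPM (SD, n = 3) and 37.6 ± 11.4 CPM (SD, n = 4), with a log2 fold change of −0.17 (SE 0.27, limma adjusted p = 0.854, exact permutation p = 0.6), which turned to 0.059 without control replicate 4. Itgav and Itgb5, the subunits of an integrin proposed as an irisin receptor, averaged 341 and 442 CPM in control and 352 and 419 CPM after EPS.

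Metrnl (meteorin-like, ENSMUSG00000039208.15, chromosome 11, 121701544 to 121716306, plus strand), a hormone reported to act on fat tissue and macrophages, differed more. Its control values were 41.9, 37.1 and 66.0 CPM and its EPS values were 33.0, 41.6, 31.0 and 29.1 CPM. EPS replicates 1, 3 and 4 were below the lowest control, and control replicate 4 was far above the other 6 libraries. The means of 48.3 ± 15.4 CPM (SD, n = 3) and 33.7 ± 5.52 CPM (SD, n = 4) gave a ratio of 0.697 (log2 fold change −0.48, SE 0.22, 95% interval −0.99 to 0.031, limma adjusted p = 0.460, exact permutation p = 0.0857). Without control replicate 4 the log2 fold change was −0.23. Kit, which encodes a receptor reported for METRNL, was listed at 0 in every library, and the relative Metrn averaged 19.7 CPM in control and 14.9 CPM after EPS. Ppargc1a, the gene of PGC-1alpha itself, was low but detected in every library, with means of 1.40 CPM in control and 1.80 CPM after EPS (log2 fold change 0.24, limma adjusted p = 0.779). Ppargc1a was picked for mention after its values were seen.

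Fgf21 (ENSMUSG00000030827.5, chromosome 7, 45613886 to 45615490, minus strand) encodes an endocrine growth factor that muscle makes under mitochondrial or nutrient stress. It had the largest log2 fold change of the 8 expressed members, in the direction of lower levels after EPS. Control replicates 1, 3 and 4 had 20.5, 38.9 and 17.7 CPM, and EPS replicates 1 to 4 had 13.3, 21.6, 7.72 and 13.3 CPM. EPS replicates 1, 3 and 4 were below the lowest control, and EPS replicate 2 lay between the controls. The mean was 25.7 ± 11.5 CPM (SD, n = 3) in control and 14.0 ± 5.74 CPM (SD, n = 4) after EPS, a ratio of 0.544. The log2 fold change was −0.83 (SE 0.37, 95% interval −1.67 to 0.00084, unadjusted P of 0.0502, limma adjusted p = 0.430, exact permutation p = 0.114). Control replicate 3 carried much of the size, since without it the value was −0.50. With DESeq2 on whole reads Fgf21 was called (log2 fold change −1.0, P of 0.00404, DESeq2 adjusted p = 0.0885), still above an adjusted p of 0.05.

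The genes that ATF4 switches on together with Fgf21 did not all stand in the same direction, and were picked for mention after their values were seen. Atf4 was at 118, 112 and 267 CPM in control and at 105, 101, 77.6 and 97.9 CPM after EPS, so that every EPS library was below every control (log2 fold change −0.68, SE 0.29, limma adjusted p = 0.425). Asns (asparagine synthetase) was likewise fully separated, with 97.1, 182 and 96.2 CPM in control and 81.6, 52.3, 51.8 and 69.2 CPM after EPS (log2 fold change −0.92, SE 0.26, limma adjusted p = 0.219). Trib3, a pseudokinase induced by stress, averaged 9.74 and 6.42 CPM. In the other direction, Ddit3 (CHOP) averaged 10.7 CPM in control and 17.7 CPM after EPS, and Atf3 averaged 2.68 and 12.4 CPM with EPS replicate 4 alone at 39.7 CPM. None of these 5 genes was called. Asns was called in 6 of the 16 other ways of processing, among them median-of-ratios scaling (log2 fold change −1.03), edgeR (−1.06, adjusted p = 0.0302) and DESeq2 (−1.07, adjusted p = 0.0098), while the difference in Atf4 shrank to −0.27 without control replicate 4.

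**Figure D3:**
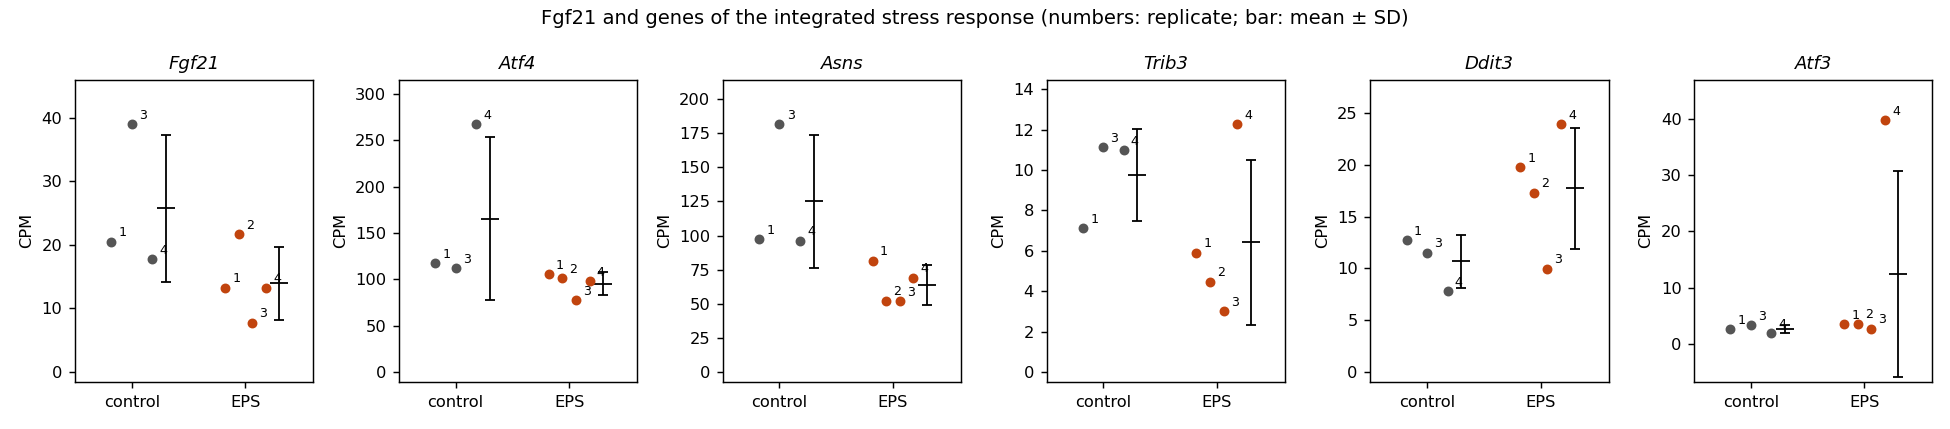
Levels (y axis, CPM, linear) of Fgf21 and of 5 integrated stress response genes in the 3 control (grey) and 4 EPS (orange) libraries, with replicate numbers and bars for mean ± SD. All EPS points of Atf4 and Asns lie below all control points, those of Ddit3 lie higher in 3 of 4 libraries, and the EPS mean of Atf3 rests on replicate 4 at 39.7 CPM.

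The receptor of FGF21 is an FGF receptor joined to the co-receptor beta-Klotho. Klb, which encodes the co-receptor, was at the limit of detection in both groups (means of 0.0389 and 0.132 CPM, where 3 reads correspond to 0.136 to 0.181 CPM depending on the library). Fgfr1 was abundant and even within groups, with 288 ± 6.16 CPM (SD, n = 3) in control and 228 ± 5.60 CPM (SD, n = 4) after EPS. Its groups were fully separated, at 281 to 292 CPM against 221 to 234 CPM, and the exact permutation p = 0.0286 is the smallest that 3 against 4 libraries can give. Its log2 fold change of −0.34 (SE 0.13) was short of 2-fold and had a limma adjusted p = 0.374. Fgfr3 was higher in every EPS library than in any control, with means of 7.11 and 14.2 CPM (log2 fold change 0.82, SE 0.33, limma adjusted p = 0.384, exact permutation p = 0.0571). Over all genes tested, 10.6% had fully separated groups. Neither receptor was called in the reported analysis, and Fgfr3 was called without EPS replicate 1 (log2 fold change 1.05).

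Fam132b (listed under this older symbol, now Erfe, ENSMUSG00000047443.14, chromosome 1, 91366430 to 91374217, plus strand) encodes erythroferrone, also called myonectin, which lowers hepcidin in the liver and promotes fatty acid uptake. Control values were 36.1, 54.6 and 29.1 CPM and EPS values 50.2, 22.0, 23.0 and 47.0 CPM. The EPS libraries split into a pair near 50 CPM (replicates 1 and 4) and a pair near 22 CPM (replicates 2 and 3), which lay on either side of most controls. The means of 39.9 ± 13.2 CPM (SD, n = 3) and 35.6 ± 15.1 CPM (SD, n = 4) differed by far less than the spread (log2 fold change −0.21, SE 0.35, limma adjusted p = 0.856, exact permutation p = 0.686), and the log2 fold change was 0.030 without control replicate 3. The gene shares 357 exon bases with Ilkap on the other strand, which stood at 42.5 to 57.8 CPM, and without a stated strand setting for the counting, reads from the shared stretch could have been given to either.

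Ostn (ENSMUSG00000052276.8, chromosome 16, 27307489 to 27351212, plus strand) encodes musclin, a peptide that raises natriuretic peptide signalling by occupying the clearance receptor NPR3. It was not detected in any control library, and had 1 read each in EPS replicates 1 and 4 and none in EPS replicates 2 and 3. Both groups were under the level of 3 reads, so no fold change is given. In control replicates 1 and 3, a count of 0 allows a level of up to that of 3 reads, 0.175 and 0.181 CPM. Control replicate 4 had few genes with low counts. Whether these were removed before deposit is not known, so its 0 sets no such limit. Its receptor gene Npr3 averaged 2.04 CPM in control and 1.70 CPM after EPS, and Npr2, the receptor of the C-type peptide that NPR3 clears, averaged 44.6 and 43.6 CPM.

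Sparc (osteonectin, ENSMUSG00000018593.13, chromosome 11, 55394500 to 55423183, minus strand) encodes a collagen-binding matrix protein and was the most abundant member by far. It was at 1240, 1728 and 1692 CPM in control replicates 1, 3 and 4 and at 1273, 1239, 1050 and 1145 CPM in EPS replicates 1 to 4. The EPS libraries lay close together, and 3 of them were below the lowest control, which was replicate 1. The mean was 1554 ± 272 CPM (SD, n = 3) in control and 1177 ± 100.2 CPM (SD, n = 4) after EPS, a ratio of 0.757 (log2 fold change −0.39, SE 0.28, 95% interval −1.02 to 0.24, limma adjusted p = 0.645, exact permutation p = 0.0571). In bulk RNA, fewer cells of a type and less RNA per cell cannot be told apart, for Sparc as for the other members.

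Because CPM depends on transcript length, levels of different members were compared as CPM per kilobase of exon sequence (GENCODE M21 gene models, GRCm38). By the median over the 7 libraries, Sparc stood at 327 CPM per kilobase, followed by Metrnl at 23.4, Fgf21 at 18.6, Fndc5 at 13.7, Fam132b at 12.8, Lif at 5.46, Bdnf at 4.98, Il15 at 1.29 and Il6 at 0.094 CPM per kilobase, with Ostn at 0. The lowest Sparc library, at 277 CPM per kilobase, was above every library of any other member. The ranges of Metrnl, Fgf21, Fndc5 and Fam132b overlapped from neighbour to neighbour, and so did those of Lif and Bdnf, so the order within these sets is not resolved. Fam132b and Lif, Bdnf and Il15, and Il15 and Il6 did not overlap. Sparc thus stood alone, 4 members lay at a middle level, 2 at a lower level, and Il15, Il6 and Ostn were the lowest.

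Genes around the 10 myokines were read from lists chosen by known function, but with earlier results of these data known. Their counts beside all genes are thus a description and no independent support. Among 18 receptor and co-receptor genes tested, none was called, the groups were fully separated for 2 (Fgfr1 lower, Fgfr3 higher, against 10.6% of all genes), and the median log2 fold change was 0.022, against 0.04 over all genes tested. Among 25 family relatives tested, none was called, and the median was 0.0047. The groups of 1 were fully separated in each direction, against 10.6% of all genes in either direction. Smoc2, a SPARC family matrix protein, was lower in every EPS library (14.3 against 7.19 CPM, log2 fold change −0.95, SE 0.29, limma adjusted p = 0.234), just short of 2-fold on the log2 scale. It was called in 6 of the 16 other ways of processing, among them quantile normalization, edgeR and DESeq2 (DESeq2 adjusted p = 0.0202). C1qtnf3, a C1q/TNF relative of Fam132b, averaged 983 CPM in control and 532 CPM after EPS (log2 fold change −0.96, SE 0.37, limma adjusted p = 0.363), with the groups overlapping, and was called in 4 of the 16.

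Of the 25 known regulators, 1 was called, against 1.41% of all genes, and the groups of 6 were fully separated (2 higher, 4 lower), against 10.6% of all genes. Egr1, an immediate early transcription factor induced by growth factor and calcium signals, fell from 114, 94.2 and 97.6 CPM in control to 39.5, 44.1, 57.6 and 43.2 CPM after EPS (log2 fold change −1.14, SE 0.17, limma adjusted p = 0.0542). Of the 15 processing and secretion genes, 1 was called, against 1.41% of all genes. The groups of 4 were fully separated (1 higher, 3 lower), against 10.6%. The called gene, Plat, the tissue plasminogen activator that starts the cleavage of pro-BDNF through plasmin, fell from a mean of 84.3 to 37.1 CPM (log2 fold change −1.15, SE 0.20, limma adjusted p = 0.0762), and was at −0.97 and no longer called without control replicate 4. The share of 1.41% includes many genes under 1 CPM, which rarely reach 2-fold on this scale. In the fit over genes with a mean of at least 1 CPM, 2.53% of all genes were called. In that fit 0 of 13 receptors, 0 of 15 family relatives, 1 of 25 regulators, 2 of 12 processing and secretion genes and 5 of 30 other myokines were called. The median of the processing and secretion list in the reported analysis was −0.26 and that of the regulators −0.092. None of the 120 genes tested on the 5 lists had an adjusted p under 0.05 in the reported limma analysis. Egr1, Plat and Igf1 did in limma with a pseudocount of 0.1 or over genes with a mean of at least 1 CPM, and Egr1 also with a pseudocount of 0.5 or median-of-ratios scaling (adjusted p for Egr1 0.0218 to 0.0489 over these 4). With edgeR 9 of them did (Asns, Cebpd, Egr1, Plat, Vldlr, Cxcl5, Fst, Igf1 and Gdf15), against 1.51% of all genes. With DESeq2 11 did, where Smoc2, Mif and Cxcl1 were added and Cxcl5 was not among them, against 2.6% of all genes. Cebpd, Vldlr, Cxcl1 and Cxcl5 are named only because these tools picked them.

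Other genes reported as myokines included 4 calls among 37 tested, 2 in each direction, against 1.41% called over all genes, and their median was −0.062. Some genes of this list, Gdf15 among them, were reported by the authors as raised after EPS in these same libraries. The groups of 5 were fully separated, against 10.6% over all genes. Gdf15, a stress-induced cytokine that acts on the brain stem, rose from 1.63 to 6.73 CPM (log2 fold change 1.44, SE 0.39, limma adjusted p = 0.196), and EPS replicate 4 was the highest at 12.7 CPM. Mif, macrophage migration inhibitory factor, rose from 175 to 378 CPM (log2 fold change 1.07, SE 0.31, limma adjusted p = 0.222). Fst, which encodes the myostatin antagonist follistatin, fell from 130 to 55.7 CPM (log2 fold change −1.35, SE 0.38, limma adjusted p = 0.213). Igf1, a growth factor for muscle, fell from 98.1 to 31.6 CPM (log2 fold change −1.70, SE 0.35, limma adjusted p = 0.101), and EPS replicate 4 was the lowest at 14.0 CPM. In each of these 4 genes the control and EPS libraries did not overlap. As they were named for their difference in the same libraries, this separation is no further support. The exact permutation p was 0.0857 for Gdf15, 0.0571 for Mif and 0.0286 for both Fst and Igf1. The call of Fst was lost in 6 of 16 other ways of processing, that of Gdf15 in 4 and that of Mif in 9. Leaving out 1 library ended the call of Fst for control replicates 1, 3 and 4 and EPS replicates 1 and 4 (log2 fold change −1.45 to −0.996). It ended that of Gdf15 for control replicates 1 and 4 and EPS replicate 2 (1.27 to 1.46), and that of Mif for control replicates 1 and 4 and EPS replicates 1, 2 and 4 (0.81 to 1.13).

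**Figure D4:**
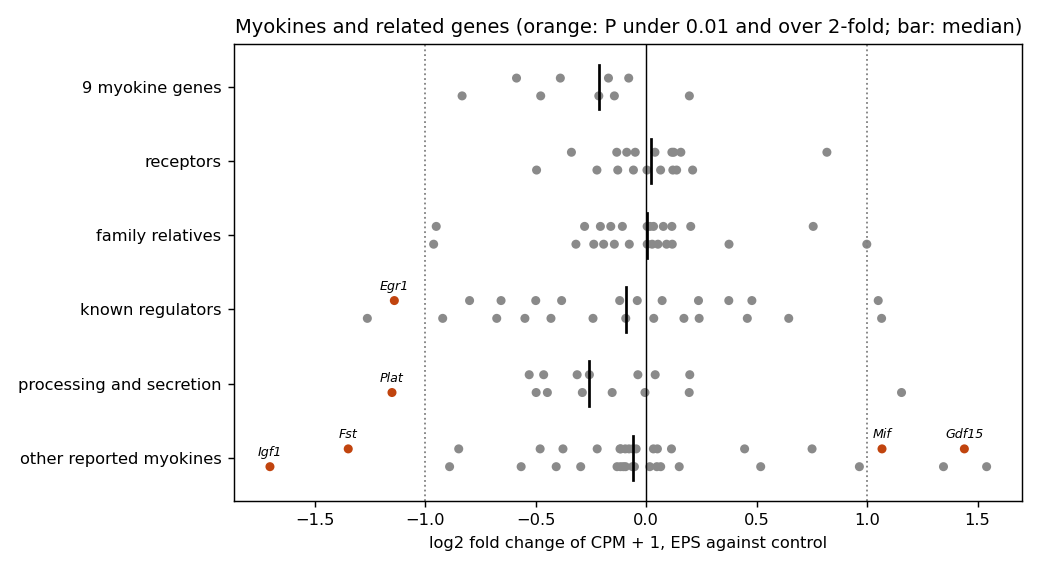
Log2 fold change of CPM + 1, EPS against control (x axis), of each tested gene among the myokines (without Ostn) and in 5 lists of related genes (rows), with a bar at each median and dotted lines at 2-fold. Called genes are orange and named: Egr1, Plat, Igf1 and Fst to the left of 0, Mif and Gdf15 to the right, and none among the myokine genes, the receptors or the family relatives.

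Of the myotube markers 9 of 10 were listed and all were expressed, none was called by limma as reported, and their summed level was 13090 to 18084 CPM in control and 11594 to 15071 CPM after EPS. Their median log2 fold change was −0.44, with 7 below 0 and 2 above. Myog, myogenin, was at 473, 565 and 1794 CPM in control replicates 1, 3 and 4 and at 281, 605, 406 and 278 CPM in EPS replicates 1 to 4 (log2 fold change −1.07, SE 0.48, limma adjusted p = 0.437), and it was called with edgeR (−1.39, adjusted p = 0.0625) and DESeq2 (−1.40, adjusted p = 0.0303). Without control replicate 4 the log2 fold change of Myog was −0.47 (limma, unadjusted P of 0.190). The part of the myotube markers in the values of the myokines was not tested. The 6 markers of cycling myoblasts summed to 218 to 313 CPM in control and 333 to 925 CPM in EPS, with none called by limma as reported and a median log2 fold change of 0.90. Mki67, a marker of dividing cells, averaged 108 and 293 CPM (limma adjusted p = 0.275). With edgeR and with DESeq2, 2 of the 6 were called, against 3.29% and 3.06% of all genes, and Mki67 had an adjusted p of 0.0458 and 0.0191. In limma 2 of the 6 were also called with a pseudocount of 0.1, over genes with a mean of at least 1 CPM, with the replicate block, and without EPS replicate 2 or 3. In that order, 3.14%, 2.53%, 0.841%, 1.46% and 1.45% of all genes tested were called. The summed level of these 6 genes was thus higher in every EPS library than in any control, but 0 of the 6 had fully separated groups. Mki67 and Top2a (means of 91.9 CPM in control and 178 CPM after EPS) had the highest levels in the sum. The myoblast genes Myf5 (6.11 and 7.41 CPM) and Pax7 (20.2 and 18.1 CPM) differed little. The sum thus does not show more cycling myoblasts. Its part in the lower means of the 8 expressed myokines was not tested. Fibroblast markers, which C2C12 cells share in part, summed to 4363 to 6038 CPM and 3965 to 5175 CPM. None of the 6 was called by limma as reported. The groups of 2 were fully separated in opposite directions, against 10.6% of all genes. These were Pdgfra, with means of 18.9 CPM in control and 30.3 CPM after EPS, and Dpt, with 2.05 and 1.14 CPM. Lum, with means of 4.59 and 2.13 CPM (log2 fold change −0.89, limma adjusted p = 0.355), was called in 5 of the 16 other ways of processing, edgeR and DESeq2 among them. Summed markers of macrophages and leukocytes reached at most 2.87 CPM in any library, with Emr1 at 0, those of endothelial cells 1.54 CPM and those of neurons and Schwann cells 1.34 CPM.

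Genes whose levels followed a member most closely over the 7 libraries were found by Pearson's r of log2(CPM + 1) among 12255 genes, as a description without a test. The closest were Colec12 and Shisa2 to Lif (r = 0.99 for both), Nol4 and Ptpn12 to Fgf21 (0.98), Cyp26a1 and BC051019 to Metrnl (0.98 and 0.97), and Ube2v2 and Xlr3a to Sparc (0.98 and 0.97). Bdnf was followed by Pcdhb14 and Vegfa (0.98), the latter itself a secreted angiogenic factor on the list of other myokines, and Fndc5 by Mib2 and Kcnn1 (0.98 and 0.97). Il15 was followed by Slc46a1 and BC029214 (0.99), and Fam132b by Csgalnact1 and Psat1 (0.97 and 0.96). All 7 points share libraries and groups, and these genes were taken as the highest of all those searched.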

How the data were processed

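Poly(A) RNA of C2C12 myotubes was sequenced in 7 libraries, and the authors aligned reads with STAR 2.5.4b to GRCm38 (per the methods and the submitters' processing notes). The deposited values are CPM per gene symbol, that is, read counts scaled by the authors to a fixed total over the listed genes. The library kit keeps the strand of the RNA, but the counting program, its annotation and its strand setting are not given in the sources used here. Low values came in whole steps, so whole reads were recovered for 100% of values (within 0.1 of a whole read), giving 16616917 to 22120641 reads per library. Limits set from 3 reads cover counting error only, and the 95% intervals of fold changes come from the spread between libraries in limma.

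Groups were taken from the sample labels. limma 3.58.1 (R 4.3.3, mean-variance trend, empirical Bayes) was fitted to log2(CPM + 1) of the 19144 genes above 0 in at least 1 library, without covariates. A fold change is on that scale and understates the change of low genes. For single genes an exact two-sided permutation test over all splits of 3 against 4 libraries was run on mean CPM. Alternatives were a pseudocount of 0.1 or 0.5, a mean of at least 1 CPM, median-of-ratios scaling or quantile normalization of the values, a robust empirical Bayes step, edgeR 4.0.16 quasi-likelihood and DESeq2 1.42.0 on recovered reads, the replicate number as a block, and leaving out each library. The fitting was tested on simulated data. Named genes were all 10 members, the called genes of each list (otherwise its 4 largest differences at a mean of at least 1 CPM), and for each expressed member the 2 genes most like it. One gene that this rule names is not reported here. Others are said to be chosen after their values were seen or serve as a member's receptor or marker. The members and lists were chosen with earlier results of these data known. Gene coordinates come from GENCODE M21 and promoters from RefSeq.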

Additional observations from a re-analysis of the deposited data

Results flagged for a closer look

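One result stood apart within its group. Among the 4 EPS libraries, replicate 2 had 6.09 CPM of Il15, and its gap to the nearest other library took up 0.922 of the range of the group, more than Dixon's 95% limit for 4 samples. The other EPS libraries had 2.65, 2.74 and 2.92 CPM of Il15. The test was made in the EPS group for each of the 10 genes, 1 was past the limit, and about 5% of such groups pass it by chance. The control group, with 3 libraries, was not tested.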

How the results depend on the processing

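The count of called genes, 269 in the reported analysis (185 higher, 84 lower), was 601 with a pseudocount of 0.1 (445 and 156), 629 with edgeR (329 and 300) and 585 with DESeq2 (317 and 268). Quantile normalization called 130 higher and 122 lower and median-of-ratios scaling 134 and 120. These scalings moved the median difference (log2) over genes at a mean of 1 CPM or more from 0.10 to 0.0052 and −0.0048, and that of the 8 expressed myokines from −0.30 to −0.32 and −0.41. The 27 genes with an adjusted p under 0.05 became 106 with a pseudocount of 0.1, 121 with a mean of at least 1 CPM, 17 with quantile normalization, 290 with edgeR and 497 with DESeq2. Leaving out 1 library at a time gave 209 to 325 called genes and 0 to 27 with an adjusted p under 0.05 (0 without EPS replicate 3, 4 without EPS replicate 4, 8 without EPS replicate 2, 5 without control replicate 1 or 4, 6 without control replicate 3). With the replicate block, 161 genes were called and 0 had a limma adjusted p under 0.05, while 1628 had an unadjusted P under 0.05, and Fgf21 was at −1.06 and Lif at −0.74. EPS replicate 2 has no control of its number and adds nothing to the blocked estimate. The blocked fold changes are therefore those found without EPS replicate 2, and these 2 alternatives differ only in their p-values. Deviations of same-numbered libraries from their group means correlated at 0.25, −0.45 and 0.068 for replicates 1, 3 and 4. Deviations within a group of 3 or 4 libraries depend on one another, so these values cannot decide whether the numbers pair the libraries. The labels do not say. None of the 10 members was called under any alternative except 1 under DESeq2, Fgf21 at −1.0 (adjusted p = 0.0885). Of 158 values of members under the 16 alternatives, 152 kept direction and side of the threshold and 5 reversed: Fam132b at 0.030 without control replicate 3, Fndc5 at 0.059 without control replicate 4, and Il15 at 0.25 without control replicate 4, 0.012 without EPS replicate 1 and 0.00069 without EPS replicate 3. Over the left-out libraries Il15 ranged from −0.39 to 0.25, Fndc5 from −0.37 to 0.059, Fam132b from −0.41 to 0.030, Bdnf from −0.23 to −0.041 and Il6 from 0.056 to 0.40. Fgf21 ranged from −1.06 to −0.50, Lif from −0.74 to −0.43, Metrnl from −0.64 to −0.23 and Sparc from −0.54 to −0.30. The cause of these shifts was not tested. Depth limits Il6 and Ostn, which had at most 13 reads in any library.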
